A study of Mus musculus with 4 samples.

Results

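The genes described here are 10 immunoglobulin-type adhesion molecules of 4T1 mouse breast cancer cells, out of 20197 genes with a row in the expression table: Cadm1, Cadm4, Nectin1, Nectin2, Nectin3, Nectin4, L1cam, Alcam, Icam1 and Vcam1. They were chosen by name as members of a structural group, with earlier results of these data known. Cadm1, however, was selected on the measured values used below, for a large difference between the groups on few reads. Its difference is therefore given as a description with no test. 4T1 is a mammary tumor cell line from mouse, here of wild-type genotype and grown in DMEM with 10% fetal bovine serum, 20 mM Hepes and penicillin/streptomycin. All of them had taken up MitoSpy Red at 20 nM, a dye that accumulates in mitochondria according to their membrane potential (MMP), and the brightest and the dimmest 5% were sorted as high MMP and low MMP cells. The study asked how cells with high and low mitochondrial activity differ in gene expression, and RNA of 100000 cells per sample was sequenced from stranded mRNA libraries, with 2 libraries from each gate. Both groups come from the same line and differ in the sorting gate, and unsorted cells were not analysed here.

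Immunoglobulin-type adhesion molecules are single-pass membrane proteins whose extracellular part is built from immunoglobulin folds. Nectins and cell adhesion molecules of the CADM family bind each other across neighbouring cells without calcium and attach to the actin cytoskeleton through adaptors such as afadin and protein 4.1, which places them at the adherens junctions and lateral membranes of epithelia. ICAM1 and VCAM1 instead bind integrins of leukocytes and are best known from inflamed endothelium, whereas L1CAM and ALCAM bind themselves or related partners and are often studied in tumor cell migration. The extracellular parts of several of these proteins can be released by membrane proteases.

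Depth was recovered from the values, which were whole multiples of 1 step in each library, and ranged from 22591970 to 26395015 assigned reads, with 18643 to 18854 genes above 0. Values are given as normalized reads, that is reads of a gene after scaling each library to 20000000, and a difference is the mean of the high MMP libraries less that of the low MMP libraries in log2(value + 1), a scale that understates the change of low genes. The epithelial identity of the cells was visible in all 4 libraries: all 12 epithelial markers were detected, with Epcam at 3647 to 4619 normalized reads. Of 12 leukocyte markers 5 had a row, with a summed level of 73.5 to 160.4 normalized reads that came mostly from Cd68, while the pan-leukocyte marker Ptprc lay between 0 and 1.77. The endothelial marker Cdh5 lay between 0 and 2.66 normalized reads, and 3 of 8 endothelial markers had a row with a summed level of 5.02 to 12.9. Of 8 fibroblast markers 5 had a row, with a summed level of 341.0 and 405.9 for high MMP and 583.2 and 631.2 for low MMP cells that came mostly from Pdgfra, and of 8 neural markers 3 had a row, with a summed level of 1236 to 1462. In bulk RNA, fewer cells of a kind and less RNA per cell cannot be told apart.

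Upstream sequence was on hand for 7 of the 10 genes and is shown for 3 of them: Icam1 and Alcam, whose groups did not overlap in opposite directions, and Nectin2, the most abundant of the 10. Each run is the 250 bases before the RefSeq transcription start on build GRCm38.p6, written 5′ to 3′ along the strand of the gene. Capitals mark matches on either strand to the GC box (GGGCGG), the CCAAT box (CCAAT) and a kappaB-type site (GGAAATTCC). The windows are chr9:21015690-21015939 on the plus strand for Icam1, chr16:52453082-52453331 on the minus strand for Alcam and chr7:19749574-19749823 on the minus strand for Nectin2.
Icam1: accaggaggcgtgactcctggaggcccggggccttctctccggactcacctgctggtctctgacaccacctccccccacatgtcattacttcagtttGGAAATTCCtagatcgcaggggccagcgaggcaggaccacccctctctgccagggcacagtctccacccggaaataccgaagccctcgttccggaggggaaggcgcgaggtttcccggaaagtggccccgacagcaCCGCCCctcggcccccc
Alcam: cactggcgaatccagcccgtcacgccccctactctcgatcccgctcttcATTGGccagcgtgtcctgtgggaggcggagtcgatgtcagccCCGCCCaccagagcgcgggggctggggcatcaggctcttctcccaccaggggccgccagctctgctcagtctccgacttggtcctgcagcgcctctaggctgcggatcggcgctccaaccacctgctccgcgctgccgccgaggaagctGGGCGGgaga
Nectin2: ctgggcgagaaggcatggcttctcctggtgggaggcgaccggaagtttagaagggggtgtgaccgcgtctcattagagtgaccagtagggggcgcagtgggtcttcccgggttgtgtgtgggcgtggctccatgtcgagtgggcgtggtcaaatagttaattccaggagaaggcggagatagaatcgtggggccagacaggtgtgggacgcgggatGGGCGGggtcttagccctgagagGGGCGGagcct

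All 3 windows held a GC box, at 11 bases before the start in Icam1, at 4 and 153 bases in Alcam and at 5 and 28 bases in Nectin2. Over the 7 genes with sequence, Cadm4, Nectin3 and L1cam held it too, which makes 6 of 7, beside 32.7% of all 32851 promoter windows of the same length. The windows of these 6 genes had 62% (Nectin2) to 75.2% (Cadm4) GC, and that of Nectin4, which held no GC box, 54.4%. The median of all windows was 52.4%, and the part of GC content in the count was not tested. The GGAAATTCC run stood 144 bases before the Icam1 start and in none of the other 6 genes, beside 0.286% of all windows. Only this exact run was searched and no other kappaB-type sequence. Its match and its share thus say nothing of kappaB-type sites in general. The CCAAT box was found in Alcam and in 1 of the 2 L1cam windows, beside 33.8% of all windows, and neither the TATA box (TATAAA, 12.4% of all windows) nor the AP-1 site (TGANTCA, 6.75%) matched in any of the 7 genes. These matches describe letters in a window and say nothing of whether a factor was bound.

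The 10 genes ranged widely in level, measured as RPKM, in which reads are scaled to the length of exon and to the assigned reads of the library, over all 4 libraries. Nectin2, a nectin found in many epithelia, stood highest at 22.3 ± 3.90 (SD, n = 4), 3.01-fold above the next gene. Vcam1 at 7.42 ± 1.23 and Alcam at 7.41 ± 1.21 followed with overlapping ranges. Cadm4 at 5.81 ± 0.372 and Nectin1 at 5.31 ± 0.671 formed the next pair, and Icam1 at 3.36 ± 0.894 and Nectin3 at 3.12 ± 0.262 the one after it, each again with overlapping ranges. L1cam at 0.848 ± 0.329 and Nectin4 at 0.269 ± 0.0770 came next, without overlap with their neighbours. Cadm1 was last at 0.0333 ± 0.0341, 8.08-fold below Nectin4. With the longest transcript in place of all exons as the length, Icam1 (5.77) moved above Nectin1 (5.31) and the other ranks held, but the distances changed. Nectin2 then stood at 28.5, Vcam1 at 16.1 with a range above that of Alcam (8.75), Nectin4 at 0.277 and Cadm1 at 0.0728.

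**Figure D1:**
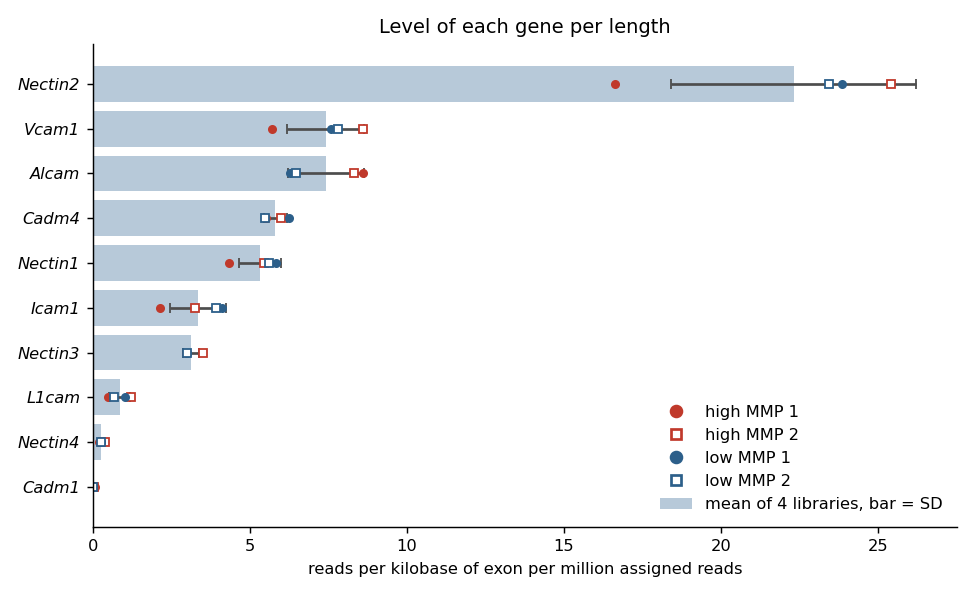
Level of each gene per length, in RPKM on a linear axis. Bars are means of 4 libraries with SD, and points are single libraries; Nectin2 stands at 22.3, 3.01-fold above Vcam1, and Cadm1 at 0.0333.

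Between high and low MMP cells, 8 of the 9 genes other than Cadm1 differed by less than at least 1 of their gaps between replicates, and Alcam by more than both. Among genes averaging at least 10 normalized reads, 25.8% differed by more than both gaps. Of these 9 genes, 0 differed by limma at an adjusted p under 0.05, with adjusted p from 0.472 to 0.994, where 0 of all 20197 genes (0%) passed. On simulated data this fit over the whole table missed the changed genes, so its lack of calls carries no information. Limma restricted to the 12902 genes averaging at least 10 normalized reads and edgeR both found them. Whether either finds differences as small as those of these 9 genes, −0.60 to 0.41, at the replicate spread of these libraries was not tested. That spread, as the SD of the replicate difference over those 12902 genes, was 0.398 for high and 0.288 for low MMP libraries. With that restriction of limma, 0 of the 9 and 0% of those genes passed. At an unadjusted p under 0.05, 1 of the 9 passed, Alcam, beside 9.96% of all genes. By the quasi-likelihood test of edgeR on the recovered reads 0 of the 9 and 0% of all genes passed, by edgeR with the replicate number as a block 0 of the 9 beside 0.525% of all genes, and by DESeq2 0 of the 9 beside 0.954% of the genes with an adjusted p. The median difference of the 9 genes was −0.09, and that of all genes −0.04. The high and low MMP values did not overlap for 3 of the 9: Alcam was higher in high MMP cells, beside 13.5% of all genes and 14.3% of those 12902 genes, and Nectin1 and Icam1 were lower, beside 24.5% and 23.7%. After median-of-ratios scaling Nectin3 joined them, which made 4. The share over all genes under that scaling was not computed, so this count only describes the 9 genes. The study counts its replicates as independent experiments or tumors, and the sample titles only number them.

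**Figure D2:**
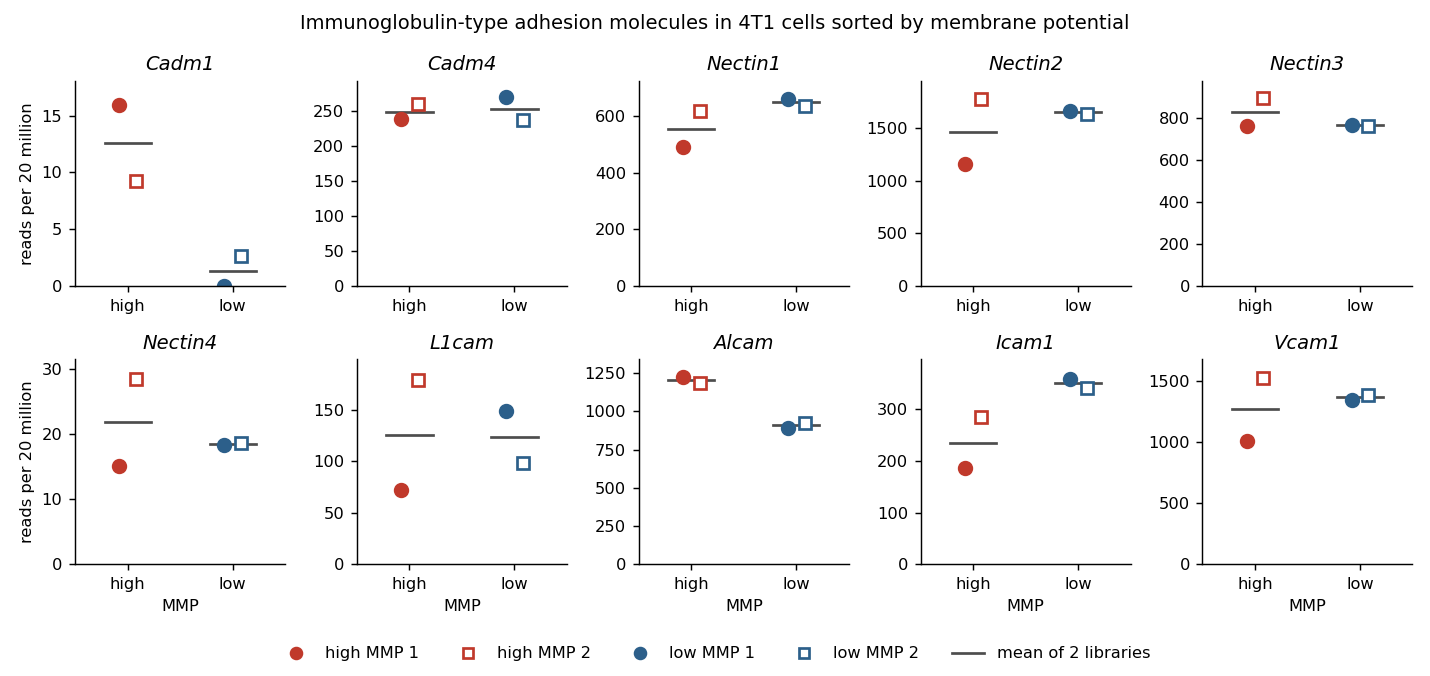
Normalized reads of the 10 genes in each library, on linear axes that start at 0, with the 2 high MMP libraries left and the 2 low MMP libraries right in each panel; lines are means of 2 libraries. The groups stand apart for Cadm1 and Alcam, higher in high MMP, and for Nectin1 and Icam1, lower in high MMP, and overlap for the other 6.

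Cadm1 encodes a homophilic adhesion molecule of epithelia and neurons, also called TSLC1, that is known as a tumor suppressor silenced in several carcinomas. The gene lies on chromosome 9 from 47530173 to 47857637 on the plus strand (GRCm38), with 13 blocks of exon. It had 21 reads in high MMP library 1 and 11 in high MMP library 2, against 0 in low MMP library 1 and 3 in low MMP library 2. Both high MMP libraries thus lay above both low MMP libraries, at 15.9 and 9.21 against 0 and 2.66 normalized reads.

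The exact 95% Poisson intervals of the counts above 0 were 13.0 to 32.1, 5.49 to 19.7 and 0.619 to 8.77 reads, and cover counting error only, since reads without molecular identifiers are not independent molecules. Because Cadm1 was picked on these reads, the intervals describe the counts and test nothing. The count of 0 is shown with a limit of 3 reads, or 2.62 normalized reads in low MMP library 1. The exact Poisson interval used for the other counts would end at 3.69 reads there, or 3.22 normalized reads. Summed over the groups, 32 of 50294828 high MMP reads stood against 3 of 45533930 low MMP reads, a ratio of 9.66 with a 95% counting interval of 3.02 to 49.3. On the log2(value + 1) scale the difference was 2.78 ± 0.76 (SE, n = 2 per group), with 4.08 between the libraries numbered 1 and 1.48 between those numbered 2. The fitted difference ranged from 1.85 without low MMP library 1 to 3.72 without low MMP library 2, and was 1.48 with a pseudocount of 5.

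**Figure D3:**
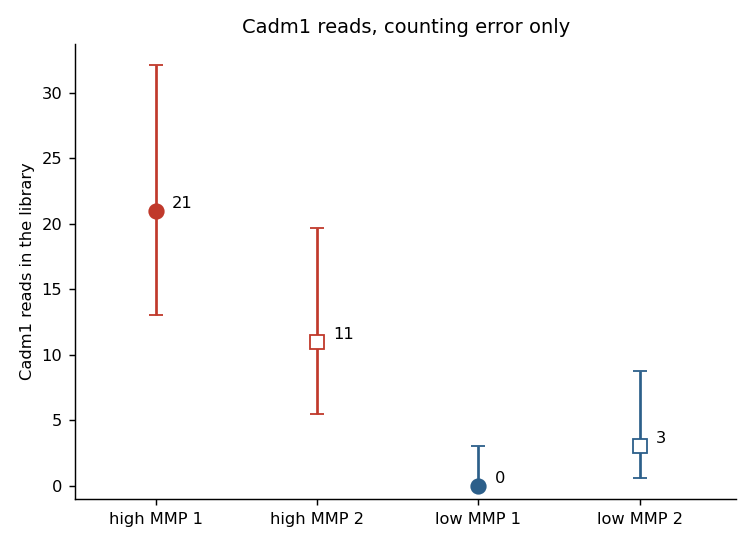
Cadm1 reads in each library on a linear axis, with exact 95% Poisson intervals for counts above 0 and a bar up to 3 reads for the count of 0, all for counting error only. The exact interval of the count of 0 would end at 3.69 reads. The high MMP libraries had 21 and 11 reads and the low MMP libraries 0 and 3.

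The 3 genes whose pattern over the 4 libraries came closest to that of Cadm1 were sought among 17693 genes averaging at least 1 normalized read, by the root mean square distance of centred log2(value + 1) values. They were Gm16178 (0.40), the calcium-binding protein gene S100a8 (0.48) and Gm15466 (0.51). S100a8 had 48 and 13 reads in the high MMP and 2 and 5 in the low MMP libraries. The other 2 had 4 to 9 reads in the high MMP and 0 to 2 in the low MMP libraries, so all 3 patterns rest, like that of Cadm1, on few reads.

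Cadm4, the second CADM member with a row in the table, encodes an adhesion molecule of epithelia and myelinating glia and lies on chromosome 7 from 24482023 to 24504539 on the plus strand. Cadm4 stood at 239 and 259 normalized reads in the high MMP and 269 and 236 in the low MMP libraries. The 4 values interleaved, and the difference was −0.02 ± 0.12 (adjusted p = 0.994, limma), with the sign turning to 0.02 after median-of-ratios scaling. Per kilobase, Cadm4 made up 98.6% and 99.3% of the summed Cadm1 and Cadm4 level with high MMP, and 100% and 99.8% with low MMP. The CADM transcripts of these cells were thus almost entirely Cadm4 in each of the 4 libraries, and Cadm2 and Cadm3 had no row in the table analysed here.

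The nectins form adherens junctions together with cadherins, and Nectin2 is also bound by lymphocyte receptors. Nectin1 (chromosome 9, 43743984 to 43807461, plus strand) stood at 490 and 618 normalized reads in the high MMP and at 661 and 635 in the low MMP libraries. Both high MMP values lay below both low MMP values, the nearest of them by little, and the difference was −0.23 ± 0.14 (adjusted p = 0.699, limma). Without high MMP library 1 it was −0.07.

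Nectin2 (chromosome 7, 19716644 to 19750483, minus strand) stood at 1162 and 1776 normalized reads in the high MMP and at 1668 and 1638 in the low MMP libraries. The high MMP libraries thus held both the lowest and the highest value, on either side of 2 close low MMP values. The difference was −0.20 ± 0.22 (adjusted p = 0.855, limma), and 0.10 without high MMP library 1. Exons of the antisense gene Gm20512 overlap those of Nectin2, and the strand setting of the counting is not stated.

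Nectin3, the preferred partner of nectin-1 across the junction (chromosome 16, 46387706 to 46498525, minus strand), stood at 759 and 895 normalized reads in the high MMP and at 765 and 762 in the low MMP libraries. Only high MMP library 2 stood apart from the other 3. The difference was 0.11 ± 0.11 (adjusted p = 0.843, limma), and −0.01 without that library.

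Nectin4, known from placenta and as an antibody target in carcinomas, was the lowest nectin. The gene lies on chromosome 1 from 171370099 to 171388598 on the plus strand. It had 20 and 34 reads in the high MMP and 21 and 21 in the low MMP libraries, or 15.2 and 28.5 against 18.3 and 18.6 normalized reads. Their 95% Poisson intervals, from 12.2 to 30.9 for the lowest and from 23.6 to 47.5 for the highest count, overlapped. The difference was 0.17 ± 0.39 (adjusted p = 0.961, limma), and −0.27 without high MMP library 2.

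The makeup of the nectin family, per kilobase of exon, varied by a few percentage points between libraries. Nectin2 took 68.9% and 73.1% of the summed nectin level in the high MMP and 72.4% and 72.6% in the low MMP libraries. Nectin1 took 15.7% to 18.0%, Nectin3 9.10% to 12.3% and Nectin4 0.742% to 1.09%. The summed level itself was 24.1 and 34.8 RPKM with high MMP, on either side of 33.0 and 32.3 with low MMP.

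L1cam encodes a neural adhesion molecule that is also found in invasive carcinomas and lies on chromosome X from 73853778 to 73896105 on the minus strand. L1cam stood at 72.0 and 179 normalized reads in the high MMP and at 149 and 98.3 in the low MMP libraries. It had the widest replicate gaps of the 9 genes, 1.30 between the high MMP and 0.60 between the low MMP libraries on the log2 scale. The difference of −0.09 ± 0.51 (adjusted p = 0.994, limma) was smaller than either gap, and was 0.56 without high MMP library 1, 0.21 without low MMP library 1 and 0.05 by edgeR. Exons of Arhgap4 overlap those of L1cam on the same strand, so the counting may have split or left out reads there.

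Alcam encodes the ligand of CD6, also named CD166, which marks stem-like cells in several epithelia and tumors. Alcam lies on chromosome 16 from 52248996 to 52454074 on the minus strand. It stood at 1224 and 1185 normalized reads in the high MMP and at 893 and 923 in the low MMP libraries. Both high MMP libraries lay above both low MMP libraries, the replicates of each group lay within 0.05 of each other on the log2 scale, and the ratio of the group means was 1.33.

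The Alcam difference was 0.41 ± 0.08 (unadjusted p = 0.00487, adjusted p = 0.472, limma), with 0.45 in the libraries numbered 1 and 0.36 in those numbered 2. Alcam was the only one of the 9 genes whose difference was larger than both replicate gaps, beside 25.8% of genes averaging at least 10 normalized reads. Leaving out any 1 library left the difference between 0.38 and 0.43. Of 12 G2/M-phase markers 0 passed by limma and 8 were higher at an unadjusted p under 0.05, beside 9.96% of all genes in either direction. Their summed level was 92403 and 100096 normalized reads in high MMP against 60965 and 63430 in low MMP libraries. Without overlap 10 of them lay higher, beside 14.3% of genes averaging at least 10 normalized reads, and Ccnb2 lower, while Mki67 overlapped. Their part in the Cadm1 and Alcam differences was not tested.

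**Figure D4:**
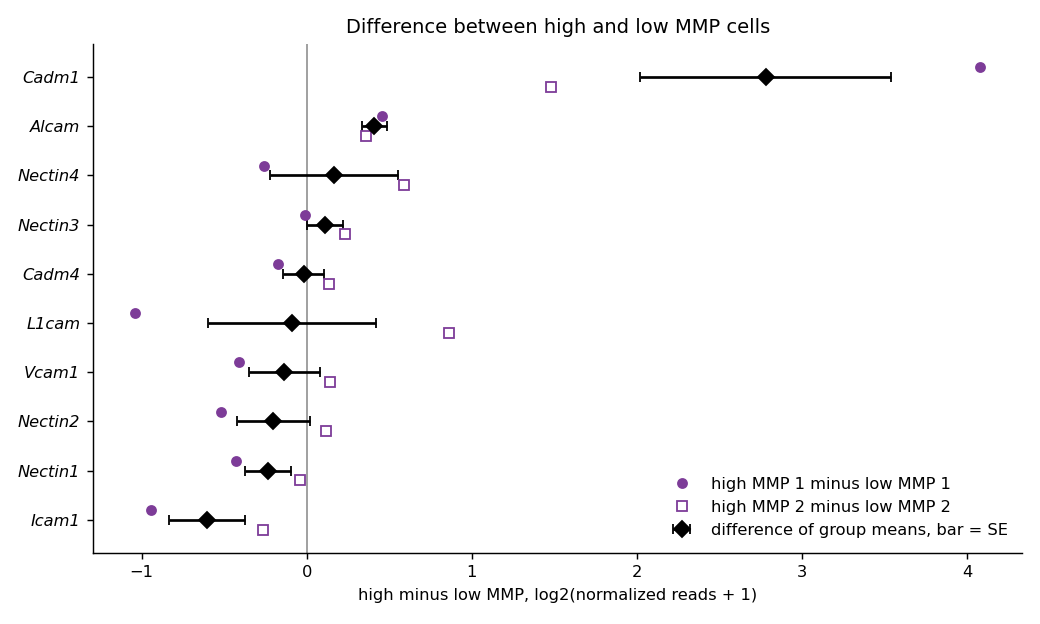
Difference between high and low MMP cells for each gene, in log2(normalized reads + 1). Diamonds are differences of group means with SE, and circles and squares the differences between same-numbered libraries. Alcam has the smallest SE (0.08). For 6 of the 9 genes other than Cadm1 the same-numbered differences lie on opposite sides of 0, and the share over all genes was not computed.

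Icam1, the endothelial and epithelial ligand of the leukocyte integrins LFA-1 and Mac-1, is a classical NF-kB target induced by inflammatory cytokines. Icam1 lies on chromosome 9 from 21015985 to 21028817 on the plus strand. It stood at 186 and 285 normalized reads in the high MMP and at 358 and 342 in the low MMP libraries. Both high MMP values were below both low MMP values, and the ratio of the group means was 0.672. The difference was −0.60 ± 0.23 (unadjusted p = 0.0567, adjusted p = 0.524, limma), about as large as the gap of 0.61 between the high MMP replicates. Without high MMP library 1 it was −0.30. Exons of the antisense gene Gm47079 overlap those of Icam1. Of the 5 fibroblast markers with a row 0 passed by limma, a lack of calls that carries no information. By the unadjusted limma threshold used above 1 was lower, Pdgfra, beside 9.96% of all genes in either direction. As with Icam1 and Nectin1, 2 of the 5 were lower without overlap, beside 24.5% of all genes. Pdgfra stood at 319 and 363 normalized reads in high MMP against 536 and 589 in low MMP libraries. Pdgfrb stood at 6.06 and 7.53 against 10.5 and 9.74. The groups overlapped for Col1a1, Dcn and Fap, with Fap between 0.758 and 1.77. The part of these markers in the Icam1 and Nectin1 differences was not tested.

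Vcam1, the ligand of the integrin alpha4 beta1 on leukocytes, lies on chromosome 3 from 116109949 to 116129688 on the minus strand. Vcam1 stood at 1011 and 1526 normalized reads in the high MMP and at 1345 and 1384 in the low MMP libraries. The low MMP values again lay between the 2 high MMP values. The difference was −0.14 ± 0.22 (adjusted p = 0.925, limma), and 0.16 without high MMP library 1. Exons of the antisense gene Gm43109 overlap those of Vcam1.

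Over the 12902 genes averaging at least 10 normalized reads, the high MMP replicates differed more than the low MMP replicates. The SD of the replicate difference was 0.398 against 0.288 on the log2 scale. High MMP library 1 was the lowest of the 4 libraries for 7 of the 9 genes, all except Cadm4 and Alcam, beside 37.3% of genes averaging at least 10 normalized reads. For 5 of them, Nectin2, Nectin3, Nectin4, L1cam and Vcam1, high MMP library 2 was also the highest, beside 12.4% of those genes. The high MMP replicates lay further apart than the low MMP replicates for 7 of the 9, near the 69.9% of those genes. For 6 of the 9 the difference had opposite signs in the 2 same-numbered pairs, and the same sign only for Nectin1, Alcam and Icam1. The share over all genes was not computed, so this count only describes the 9 genes.

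Of 34 other immunoglobulin-type adhesion molecules 23 had a row. By limma 0 of the 23 passed in either direction at an adjusted p under 0.05. As for the members above, this lack of calls carries no information, here and in the other lists. At an unadjusted p under 0.05, 3 were higher and 2 lower in high MMP cells, beside 9.96% of all genes. The 3 were Jam2, Madcam1 and Clmp, with 1 or 2 reads in each high MMP library and 0 in the low MMP libraries. They passed the authors' filter on detection in 2 samples only through the high MMP libraries, so their direction carries no weight. The 2 were Bcam and Icam5. The median difference of the 23 was 0.03. Bsg, which encodes the widespread immunoglobulin-type protein basigin, was the most abundant per kilobase at 194 ± 14.3 (SD, n = 4), followed by the tight junction molecule F11r at 31.1 ± 2.38 and Kirrel at 27.9 ± 5.05.

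Among the 13 of these genes with a mean of at least 10 normalized reads, the differences were largest for Igsf11 (0.38 ± 0.37, adjusted p = 0.837, limma) and Mcam (0.13 ± 0.24, adjusted p = 0.938). They were lowest for Igsf3 (−0.42 ± 0.24, adjusted p = 0.690) and for Bcam, the laminin-binding Lutheran glycoprotein (−0.40 ± 0.14, adjusted p = 0.492). Bcam stood at 163 and 199 normalized reads in the high MMP and 240 and 236 in the low MMP libraries, with no overlap.

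The cytoplasmic partners link these receptors to actin, spectrin and scaffold proteins, and all 26 listed genes had a row. By limma 0 passed in either direction, and at an unadjusted p under 0.05 3 were higher and 1 lower, beside 9.96% of all genes, with a median difference of 0.05. The ERM proteins, which tether ICAMs and other receptors to cortical actin, were the most abundant per kilobase, with Msn at 253 ± 10.3, Ezr at 120 ± 5.12 and Rdx at 63.2 ± 3.24 (SD, n = 4).

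Sorbs2, an adaptor of the vinexin and ponsin family, had the largest difference of the partners. It stood at 2621 and 2754 normalized reads in the high MMP against 1740 and 1997 in the low MMP libraries, with no overlap and a difference of 0.53 ± 0.10 (unadjusted p = 0.00576, adjusted p = 0.472, limma). Ank3, an ankyrin that anchors L1-type molecules to spectrin, followed with 496 and 454 against 396 and 354 normalized reads (0.34 ± 0.11, adjusted p = 0.472, limma). At the other end stood 2 membrane-associated guanylate kinases: Mpp3, which had 53.0 and 91.2 in the high MMP against 145 and 124 normalized reads in the low MMP libraries (−0.93 ± 0.31, adjusted p = 0.472, limma), and Mpp2 (−0.46 ± 0.27, adjusted p = 0.692).

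The counter-receptors are mostly lymphocyte and myeloid proteins, and 7 of 15 had a row. By limma 0 passed in either direction, 1 was higher and 2 were lower at an unadjusted p under 0.05, beside 9.96% of all genes, and the median difference was 0.02. Of the 2 lower genes, Itga9 had 0 reads in the high MMP and 1 in each low MMP library. It passed the same filter only through the low MMP libraries, so its direction carries no weight either. The beta1 integrin Itgb1 was the most abundant per kilobase at 223 ± 30.6 (SD, n = 4), with a difference of 0.11 ± 0.18 (adjusted p = 0.932, limma).

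Tigit, an inhibitory receptor of T and NK cells that binds PVR and nectin-2, came second at 47.8 ± 12.8 RPKM. It stood at 1100 and 1055 normalized reads in the high MMP against 623 and 732 in the low MMP libraries. Both high MMP libraries lay above both low MMP libraries, with a difference of 0.67 ± 0.11 (unadjusted p = 0.00307, adjusted p = 0.472, limma). The leukocyte markers Cd3e, Cd3d and Nkg7 had no row in the table analysed here and Ptprc was at or near 0 in all 4 libraries.

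Itgb2, the beta2 integrin chain that pairs with alpha chains to bind ICAM1, stood at 438 and 407 normalized reads in the high MMP against 531 and 663 in the low MMP libraries, at 8.35 ± 1.89 RPKM. The 2 groups did not overlap, and the difference was −0.49 ± 0.14 (adjusted p = 0.472, limma). Its LFA-1 partner Itgal had 0 to 2 reads in each library, and the other alpha chains Itgam, Itgax and Itgad had no row in the table analysed here. For Itgb7, 43.2 and 81.2 normalized reads in the high MMP stood against 88.1 and 54.9 in the low MMP libraries, which overlapped (−0.23 ± 0.42, adjusted p = 0.939, limma).

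All 11 listed proteases of ectodomain and membrane cleavage had a row, and by limma 0 passed in either direction. At an unadjusted p under 0.05 0 passed too, beside 9.96% of all genes. Without overlap 4 lay lower and 0 higher in high MMP cells, beside 23.7% and 14.3% of genes averaging at least 10 normalized reads. The median difference of the 11 was −0.14. The sheddases Adam9 at 29.8 ± 4.77 and Adam10 at 27.0 ± 3.14 and the gamma-secretase subunit Ncstn at 25.1 ± 4.45 were the most abundant per kilobase (SD, n = 4). The lowest differences belonged to Adam17, the sheddase of L1CAM, ICAM1 and VCAM1 (−0.32 ± 0.17, adjusted p = 0.668, limma), and Ncstn (−0.20 ± 0.23, adjusted p = 0.858), and the highest to the gamma-secretase subunits Psenen (0.02 ± 0.16, adjusted p = 0.994) and Aph1b (0.00 ± 0.17, adjusted p = 0.998).

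**Figure D5:**
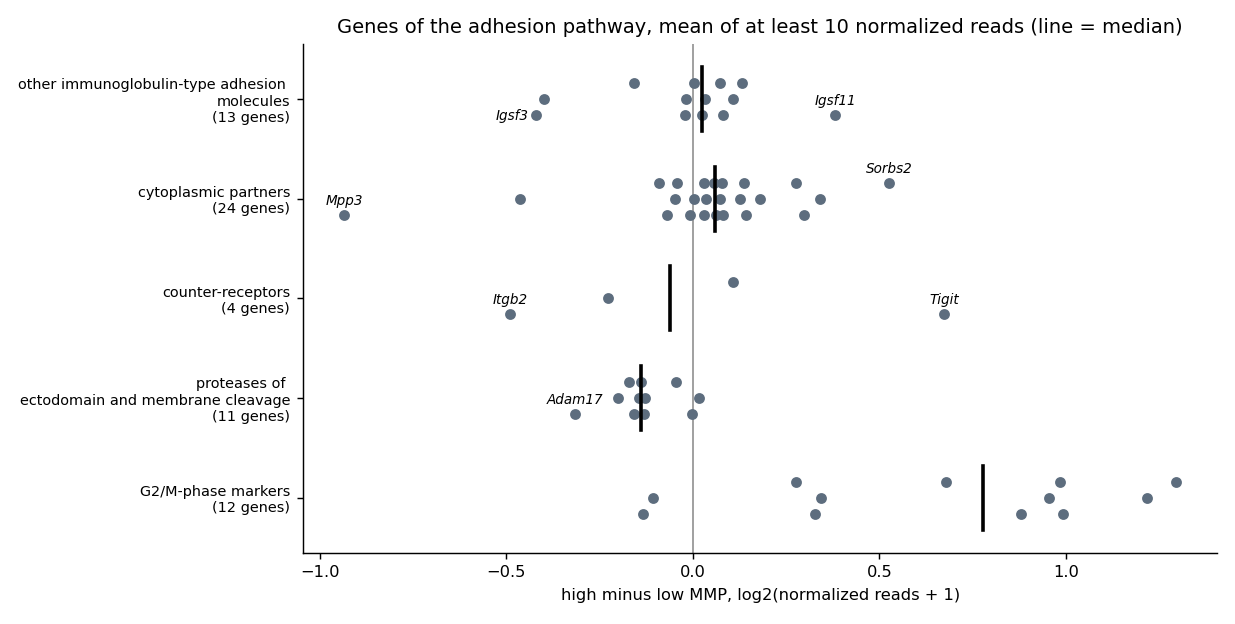
Difference between high and low MMP cells, in log2(normalized reads + 1), for each gene of the adhesion lists and of the G2/M-phase markers with a mean of at least 10 normalized reads; lines are medians. The medians of the 4 adhesion lists lie between −0.14 and 0.06, and that of the G2/M-phase markers at 0.78.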

How the data were processed

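RNA of 4 sorted 4T1 samples, 2 of high and 2 of low MMP cells, was measured by paired-end sequencing. Per the labels and the study's methods, the authors aligned reads to GRCm38 (mm10) with STAR and counted per gene with HTSeq, then normalized to library size and required detection in 2 of 4 samples or more. The versions, the annotation and the strand setting are not given in the sources used here. The deposited values are a normalized signal per gene, and each library summed to 20000000. They were whole multiples of 1 step, and 100% came out as whole reads within 0.02 reads, which gave depths of 22591970 to 26395015 reads. The table held 20197 genes, with 0 columns of no sample.

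Members and lists were chosen with earlier results of these data known. The genes named are the 10 members and, from each of 4 lists, those of largest and smallest difference and of highest level per kilobase. Markers and other genes outside this rule were named after their values were seen. Values were tested as log2(value + 1) by limma 3.58.1 (trend) in R 4.3.3, adjusted by Benjamini-Hochberg over all genes at 0.05. On simulated data this fit of the whole table called no changed gene, whereas limma with a filter on the mean, edgeR and DESeq2 did. Whether limma with that filter, edgeR or DESeq2 finds differences as small as those of the 9 genes other than Cadm1 was not tested. Nor was this tested at the replicate spread of these libraries. Alternatives were pseudocounts, filters, median-of-ratios scaling, no trend, edgeR 4.0.16, DESeq2 1.42.0, a replicate block and leaving out each library. Lengths and positions came from GENCODE M21 (GRCm38), and 19993 identifiers had a symbol. Promoters came from RefSeq.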

Additional observations from a re-analysis of the deposited data

How the results depend on the processing

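For all genes, 0 passed by limma in every setting run, with or without a filter on the mean, and by edgeR with no block. DESeq2 called 118 genes and edgeR with the replicate block 106, but 0 of the 9 genes other than Cadm1 in both. Same-numbered samples did not deviate together (correlation −0.42 over 12902 genes). The labels do not say whether they shared a culture or sort, and with 2 libraries per group this correlation cannot decide it. A crossed block (high MMP 1 with low MMP 2), chosen after seeing the data, gave 733 calls by edgeR, among them 2 of the 9 genes, Alcam and Icam1, and 0 by limma. Leaving out 1 library gave 0 calls, among the 9 genes too, but only the other group then gives the spread and such fits show nothing of stability. For the 9 genes, 17 of 153 differences under 17 alternatives changed sign: Cadm4 to 0.02 (0.0211 with median-of-ratios scaling, 0.0146 by edgeR, 0.0148 with its filter, 0.0185 by DESeq2, 0.0165 and 0.0168 by edgeR with the replicate and crossed block), L1cam to 0.0498 by edgeR with and without its filter and 0.0561 by DESeq2. Leaving out 1 library gave −0.114 to 0.0738 for Cadm4 (0.0398 without high MMP 1), −0.742 to 0.561 for L1cam (0.208 without low MMP 1), −0.508 to 0.104 for Nectin2, −0.432 to 0.162 for Vcam1, −0.00784 to 0.23 for Nectin3 and −0.268 to 0.599 for Nectin4. The causes were not tested, except that a left-out library leaves fewer samples. The Cadm1 difference kept its sign. It was 1.48 with a pseudocount of 5, which shrinks low values by construction, 1.85 to 3.72 without 1 library and 2.78 to 3.33 otherwise. A mean of at least 10 removes the gene. Cadm1 was picked for this difference and both high MMP values lay above both low MMP values, so the kept sign shows nothing of stability. With 2 libraries per group the spread within a group rests on 1 gap each, and Cadm1 and Nectin4 rest on few reads.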
